A study of Homo sapiens with 8 samples.

Results

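The zinc finger cluster at 19q13.41-q13.42 is a stretch of neighbouring ZNF genes on the long arm of human chromosome 19. Its members were chosen by name, from a list of 36 ZNF genes around ZNF83 and ZNF415, and were matched to the array annotation by current or older symbol. Of the 36 genes, 34 had a probe, of 20044 genes with a probe on the array, and 27 were measured, of 13974 genes measured in all. A gene counted as measured when its probe was detected, at a detection p under 0.05, on at least 2 of the 8 arrays. The list was drawn around ZNF83 and ZNF415 with their responses known, so the calls of these genes are no sign that the cluster as a whole responded.

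The arrays, Illumina bead arrays with 1 sample each, came from HT144, an established human melanoma line labelled as derived from a metastasis. In 2 samples, the cells were labelled SETDB1 OE, for overexpression of SETDB1, a histone methyltransferase that places a repressive mark on lysine 9 of histone H3. In 3 samples they were labelled HC/KA-SETDB1 OE, for a mutant form of it, and the other 3 samples carried the empty vector. The sources used here give neither the meaning of HC/KA, nor how the constructs were delivered, nor whether the cells were clones or pools. The labels do not call the replicates separate cultures. The p-values therefore cover the spread seen among these samples, and that spread may be technical. The array positions of each group were neighbours on a single chip, so position and group cannot be told apart.

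Most genes of this kind encode proteins with a row of C2H2 zinc fingers, which bind DNA, and often a KRAB domain. The KRAB domain recruits TRIM28 (KAP1), a scaffold that brings SETDB1, HP1 proteins and histone deacetylases to the bound site. Many KRAB zinc finger proteins bind and silence transposable elements, and clusters of zinc finger genes on chromosome 19 are themselves known to carry the SETDB1-dependent histone mark over their 3′ zinc finger exons. The genes of a cluster arose by repeated duplication and resemble each other in sequence.

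The promoter windows of ZNF83 and ZNF415 are shown because these were the members called in any comparison. Each window runs from 250 bases before to 50 bases after an annotated start, in RefSeq, build GRCh38.p14, and is printed 5′ to 3′ on the minus strand of chromosome 19, on which both genes lie. The windows are chr19:52690447-52690746 for the first ZNF83 start, chr19:52638306-52638605 for the second and chr19:53132861-53133160 for ZNF415. Capitals mark the longest runs of letters, 10 bases each, that the first ZNF83 window shares with the ZNF415 window. The ZNF83 windows share a run of 28 bases near their 5′ ends.
ZNF83 window 1: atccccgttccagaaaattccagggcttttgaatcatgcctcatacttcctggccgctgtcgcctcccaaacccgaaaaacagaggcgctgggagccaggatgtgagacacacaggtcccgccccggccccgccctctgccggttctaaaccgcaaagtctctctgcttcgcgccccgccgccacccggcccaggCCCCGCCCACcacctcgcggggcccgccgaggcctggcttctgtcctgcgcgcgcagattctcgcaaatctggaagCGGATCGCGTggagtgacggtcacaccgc
ZNF83 window 2: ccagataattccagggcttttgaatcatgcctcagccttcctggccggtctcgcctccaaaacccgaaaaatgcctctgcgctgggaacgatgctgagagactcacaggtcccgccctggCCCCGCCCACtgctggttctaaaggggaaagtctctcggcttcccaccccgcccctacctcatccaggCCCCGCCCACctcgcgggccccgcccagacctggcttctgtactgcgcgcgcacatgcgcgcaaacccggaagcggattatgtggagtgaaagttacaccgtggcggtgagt
ZNF415 window 1: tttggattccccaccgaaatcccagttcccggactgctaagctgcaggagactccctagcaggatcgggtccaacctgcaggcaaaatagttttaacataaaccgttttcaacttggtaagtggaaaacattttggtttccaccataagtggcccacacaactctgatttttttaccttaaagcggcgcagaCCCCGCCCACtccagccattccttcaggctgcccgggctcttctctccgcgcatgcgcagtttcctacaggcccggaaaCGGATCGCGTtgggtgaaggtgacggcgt

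The first of the capital runs, CCCCGCCCAC, recurred along the cluster. It was present on either strand in 14 of the 43 windows listed for 30 members, or 32.6%, and these windows belonged to 12 genes. They were ZNF841, ZNF836, ZNF808, ZNF701, ZNF83, ZNF468, ZNF320, ZNF816, ZNF415, ZNF525, ZNF761 and ZNF813. Among windows of ZNF genes elsewhere on chromosome 19, 5 of 210 held it (2.38%), and of 35116 windows over the whole genome 2.03% held it. The second run, CGGATCGCGT, was in the windows of ZNF83, ZNF415 and ZNF813, in 0 of the 210 windows of ZNF genes elsewhere on chromosome 19, and in 8 of the 35116 windows. Both runs were picked from these sequences, and members share descent, so the shares are a description with no test. The GC box core GGGCGG, which overlaps the reverse complement of the first run, was in 67.4% of the members' windows and 45% of all windows. It was also in 64.8% of the windows of ZNF genes elsewhere on chromosome 19, so the members did not stand apart from these. TATAAA was in 2.33% of the members' windows, 2.86% of those of ZNF genes elsewhere on chromosome 19 and 11.5% of all. The members' windows had a median of 24 CpG sites (range 4 to 34), against 14 in all windows, and a median GC content of 62.3%, against 58.7%. The windows printed for ZNF83 hold 29 and 22 CpG sites, and that of ZNF415 holds 17. ZNF28, ZNF480, ZNF600, ZNF610, ZNF649 and ZNF665 are not in the window table.

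Signal levels were similar on all arrays. Median raw intensities lay between 89 and 94.4, and 44.6% to 45.7% of probes were detected on each array. The background of empty vector replicate 2 had an SD of 25.9 and that of SETDB1 OE replicate 1 an SD of 13.7, against 4.58 to 6.77 on the other arrays. HC/KA-SETDB1 OE replicate 1 correlated at 0.961 and 0.969 with the others of its group and at 0.97 with empty vector replicate 1, and replicate 2 at 0.961 and 0.978 with its group and at 0.987 with empty vector replicate 3. Of 7 melanocyte markers with a probe, 7 were detected on all 8 arrays, and their summed level, in background-corrected intensity units, was 6340 and 6530 in SETDB1 OE, 7630 to 12400 in HC/KA-SETDB1 OE and 13100 to 20000 in the empty vector. The sum and the counts of genes differed in direction: in HC/KA-SETDB1 OE against the empty vector 5 of the 7 had a positive log2 fold change, with a median of 0.12, whereas 0 of 7 did in SETDB1 OE against the empty vector, with a median of -1.13. Of 5 fibroblast markers, 5 were detected on 2 or more arrays, with a summed level of 861 and 1650 in SETDB1 OE, 2210 to 2470 in HC/KA-SETDB1 OE and 1080 to 1810 in the empty vector. In HC/KA-SETDB1 OE against the empty vector, COL1A2 alone of the 5 had a positive log2 fold change, and the median over the 5 was -0.28. Of 4 epithelial markers, 0 were detected on 2 or more arrays. Of 3 endothelial markers, CDH5 was detected on 0 arrays, PECAM1 on 1 and VWF on 2. The T cell marker CD3E was detected on 0 arrays and the blood cell marker PTPRC on 1, whereas CD14 was detected on all 8. CD14 had 5.06 and 4.78 in SETDB1 OE, 5.79, 5.76 and 6.45 in HC/KA-SETDB1 OE, and 5.2, 5.34 and 5.38 in the empty vector, on the normalized log2 scale. It was highest in HC/KA-SETDB1 OE and was called lower in SETDB1 OE than there, by a log2 fold change of -1.08 (SE 0.25, limma adjusted p = 0.0381). The melanocyte marker TYR was called lower in SETDB1 OE than in the empty vector (-1.5, SE 0.24, limma adjusted p = 0.0382) and than in HC/KA-SETDB1 OE (-1.62, SE 0.24, 0.00772). Against HC/KA-SETDB1 OE, S100B was also called lower (-1.36, SE 0.32, 0.0445) and the fibroblast marker DCN higher (1.2, SE 0.29, 0.0478). The part of these markers in the results below was not tested.

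SETDB1 itself, the gene named in the labels, had normalized log2 intensities of 8 and 7.66 in the arrays labelled SETDB1 OE, of 8.32, 8.42 and 9 in HC/KA-SETDB1 OE, and of 8.25, 8.19 and 8.04 in the empty vector. The SETDB1 OE arrays were thus the lowest and the HC/KA-SETDB1 OE arrays the highest. Neither difference from the empty vector passed the test, with a log2 fold change of -0.33 (SE 0.24, limma adjusted p = 0.692) for SETDB1 OE and 0.42 (SE 0.22, limma adjusted p = 0.463) for HC/KA-SETDB1 OE. SETDB1 OE against HC/KA-SETDB1 OE gave -0.75 (SE 0.24, limma unadjusted p = 0.0109, adjusted p = 0.107). Whether the constructs contain the target of this probe is not given, so the probe does not check the labels.

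Detection was patchy across the cluster. Of the 27 measured members, 17 were detected on all 8 arrays and 10 were not. Another 7 had a probe but were not measured. ZNF610, ZNF534, ZNF611, ZNF347 and ZNF665 were detected on 1 array each, and on 0 arrays were ZNF677 and ZNF808, a gene whose loss causes failure of pancreas development in people. ZNF468 and ZNF578 have no probe in the annotation used. On single arrays the number of measured members detected was 23 and 23 in SETDB1 OE, 26, 25 and 24 in HC/KA-SETDB1 OE, and 23, 25 and 18 in the empty vector. Empty vector replicate 3 was the array with the fewest. Several members had signals close to the detection limit. The dimmest detected probe of each array had a normalized log2 intensity of 4.52 to 4.58. That value is no sharp limit, since ZNF432 was not detected at 4.85 on empty vector replicate 3. ZNF836 had 4.56 and 4.51 in SETDB1 OE, 4.44, 5 and 4.4 in HC/KA-SETDB1 OE, and 4.43, 4.79 and 4.51 in the empty vector, and was detected on 2 arrays. ZNF528 was also detected on 2 arrays. Small changes in these members could not be resolved at this signal.

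**Figure D1:**
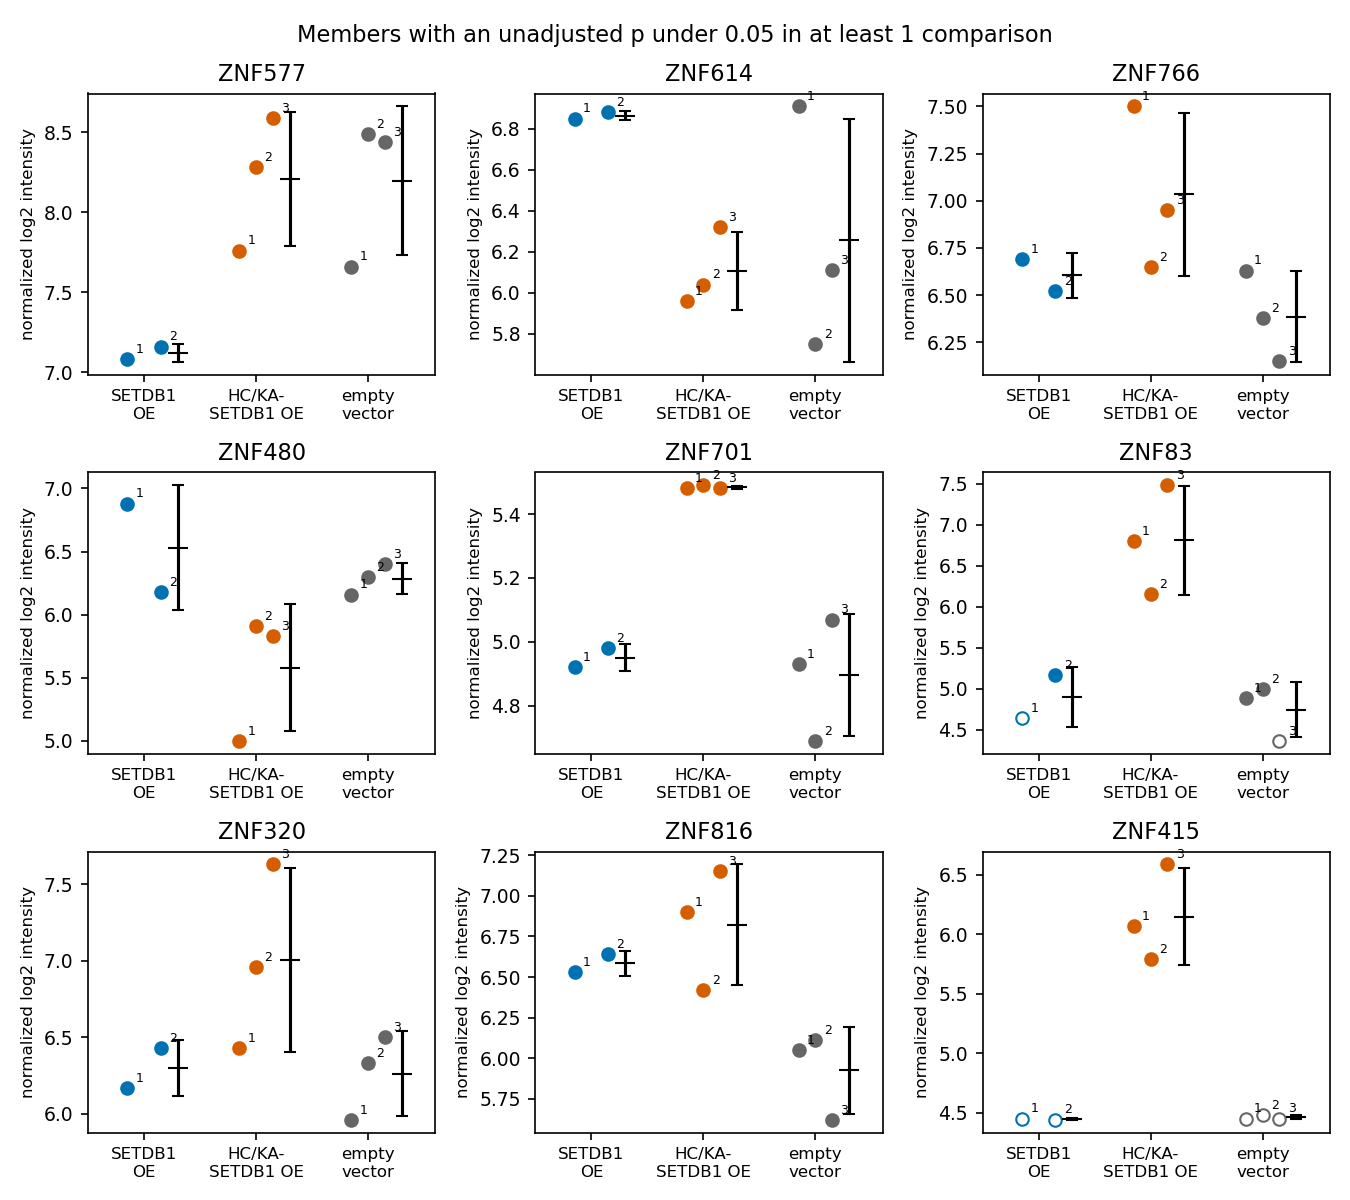
Normalized log2 intensity (y axis of each panel, with its own range) of the 9 members with an unadjusted p under 0.05 in at least 1 comparison, by group (x axis: SETDB1 OE, n = 2; HC/KA-SETDB1 OE, n = 3; empty vector, n = 3). Points are arrays, numbered by replicate, open where the probe was not detected, and bars are the mean ± SD. The 3 HC/KA-SETDB1 OE arrays stand above all others for ZNF83, ZNF415 and ZNF701, and below all others for ZNF480.

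The comparison of the mutant with the empty vector asks which members differ when the HC/KA form is overexpressed. ZNF83 and ZNF415 rose in HC/KA-SETDB1 OE cells, where 0.0787% of all genes tested rose, and 0 members fell, where 0.243% did. Nothing is read from that count, since the list was drawn around these genes. ZNF83 encodes a zinc finger protein of the C2H2 class. Its raw intensity was 171, 143 and 234 in HC/KA-SETDB1 OE, against 95.6, 101 and 77 in the empty vector. On the normalized log2 scale these became 6.8, 6.15 and 7.48 in HC/KA-SETDB1 OE, against 4.88, 4.99 and 4.36 in the empty vector. Every HC/KA-SETDB1 OE array was above every empty vector array, and the probe was detected on 3 of 3 HC/KA-SETDB1 OE arrays and 2 of 3 empty vector arrays. The mean was 6.81 ± 0.66 in HC/KA-SETDB1 OE and 4.74 ± 0.34 in the empty vector (SD, n = 3 each), a difference of 2.07 on the log2 scale (SE 0.32, 95% interval 1.36 to 2.79), or 4.2-fold, with a limma adjusted p of 0.0297. In bulk samples, more cells that express a gene and more RNA per cell cannot be told apart.

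ZNF415, whose protein has been reported to repress AP-1 and p53 reporter activity when overexpressed, was detected on the HC/KA-SETDB1 OE arrays alone. Its raw intensity was 132, 127 and 159 in HC/KA-SETDB1 OE, against 82.2, 85.3 and 83.9 in the empty vector. The normalized log2 values were 6.07, 5.79 and 6.59 in HC/KA-SETDB1 OE, against 4.45, 4.48 and 4.45 in the empty vector, so the groups did not overlap. Since the probe was not above background in the empty vector, its fold is approximate, at 3.01-fold higher in HC/KA-SETDB1 OE. For this value, each empty vector array contributed either the probe's value or the dimmest detected probe of that array, whichever was brighter. It is no strict lower limit, since brighter probes could go undetected. The fit gave a log2 fold change of 1.69 (SE 0.22, 95% interval 1.21 to 2.17, limma adjusted p = 0.0134). With the authors' log2 values it was 0.71. ZNF415 passed the detection filter solely through the group in which it was high, so it had to differ, and the count of members that rose is no support for a change of the cluster.

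Each call was lost when any 1 of several arrays was left out, but its direction held. In the fits that lost it, the log2 fold change of ZNF83 ran from 1.73 to 2.30, against 2.07 with all arrays. That of ZNF415 ran from 1.45 to 1.83, against 1.69. Fewer genes of the whole array were called in these fits as well, 2 to 30 against 45. Why the calls were lost was not tested. ZNF83 was no longer called without any 1 of empty vector replicates 1, 2 and 3 (adjusted p = 0.116, 0.0955 and 0.102) or HC/KA-SETDB1 OE replicates 1 and 3 (0.0511 and 0.0954), and neither was ZNF415 without empty vector replicates 1, 2 and 3 (0.0728, 0.0764 and 0.0557) or HC/KA-SETDB1 OE replicate 3 (0.056). Without a filter on dim probes the adjusted p was 0.126 for ZNF83 and 0.0661 for ZNF415, and without background correction the log2 fold changes shrank to 1.04 and 0.76 (adjusted p = 0.117 and 0.0672).

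Among the 25 measured members other than ZNF83 and ZNF415, 0 were called by limma, and their log2 fold changes ran from -0.71 to 0.9. At an unadjusted p under 0.05, 4 of these 25 were higher in HC/KA-SETDB1 OE, where 6.46% of all genes tested were. With ZNF83 and ZNF415 included, 6 of the 27 members were higher. Only 1 member was lower, where 6.07% were. Apart from ZNF83 and ZNF415 the higher ones were ZNF816, ZNF701, ZNF766 and ZNF320, none of which passed the adjusted test. The arrays of the groups did not overlap for 5 members that were higher, where 8.48% of all genes tested were so placed. For 1 member that was lower they did not overlap either, where 8.38% were. The 5 include ZNF83 and ZNF415, around which the list was drawn, so nothing is read from that count.

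ZNF816 had 6.9, 6.42 and 7.15 in HC/KA-SETDB1 OE, against 6.05, 6.11 and 5.62 in the empty vector, on the normalized log2 scale. All 3 HC/KA-SETDB1 OE arrays were the higher ones, by a log2 fold change of 0.9 (SE 0.23, limma adjusted p = 0.154). ZNF816 passed the test once HC/KA-SETDB1 OE replicate 2 was left out, with a log2 fold change of 1.10 and an adjusted p of 0.0417. ZNF701 was nearly constant in HC/KA-SETDB1 OE, at 5.48, 5.49 and 5.48, against 4.93, 4.69 and 5.07 in the empty vector. Its groups did not overlap, with a log2 fold change of 0.59 (SE 0.17, limma adjusted p = 0.215). ZNF766 had 7.5, 6.65 and 6.95 in HC/KA-SETDB1 OE, against 6.63, 6.38 and 6.15 in the empty vector. The HC/KA-SETDB1 OE arrays were all above those of the empty vector, though by a narrow gap, with a log2 fold change of 0.64 (SE 0.24, limma adjusted p = 0.302).

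ZNF320 spread widely in HC/KA-SETDB1 OE, at 6.43, 6.96 and 7.63, against 5.96, 6.33 and 6.5 in the empty vector. The groups overlapped, with a log2 fold change of 0.75 (SE 0.29, limma adjusted p = 0.322), and a second, dimmer ZNF320 probe gave a log2 fold change of 0 (SE 0.17). ZNF480 went the other way, with 5, 5.91 and 5.83 in HC/KA-SETDB1 OE, against 6.16, 6.3 and 6.4 in the empty vector. All 3 HC/KA-SETDB1 OE arrays were lower, by a log2 fold change of -0.71 (SE 0.27, limma adjusted p = 0.319).

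**Figure D2:**
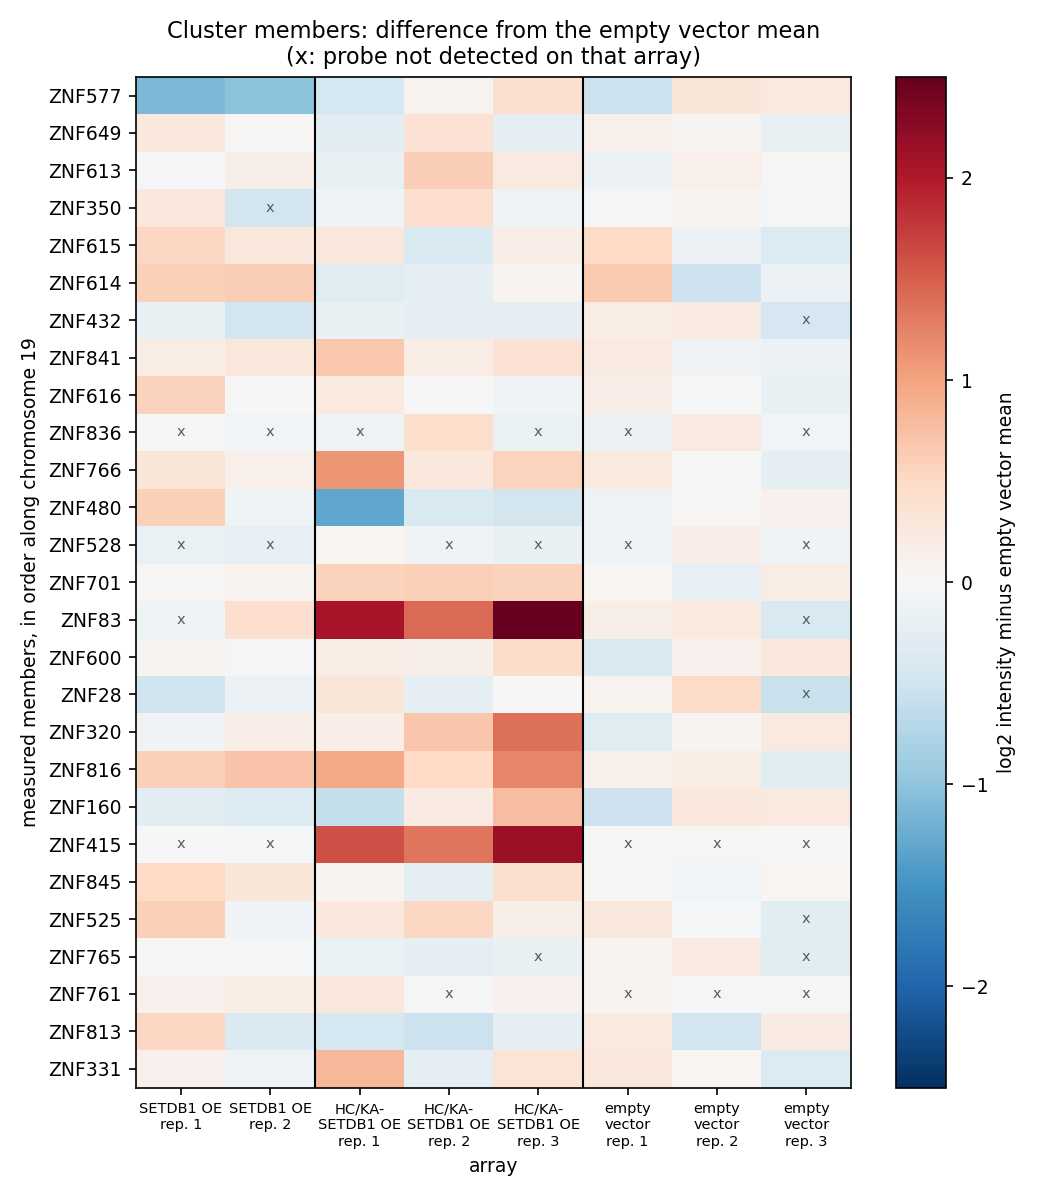
Difference of each array's normalized log2 intensity from the empty vector mean (colour, red above and blue below) for the 27 measured members (rows, in chromosomal order) on the 8 arrays (columns, SETDB1 OE left, then HC/KA-SETDB1 OE, then the empty vector). Crosses mark arrays where the probe was not detected; ZNF83 and ZNF415 are the darkest red rows in HC/KA-SETDB1 OE, and ZNF577 is blue in both SETDB1 OE arrays.

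Other members with a known role did not pass the test in this comparison. ZNF350 (ZBRK1), a partner of BRCA1 in repressing GADD45A, had a log2 fold change of 0.06 (SE 0.23). ZNF649, which binds LINE-1 elements, gave -0.05 (SE 0.21), and ZNF160, reported to repress TLR4, gave 0.13 (SE 0.33). ZNF331, an imprinted gene, gave 0.32 (SE 0.27) from the probe used, and its other passing probes gave 0.14 and 0.29. Each estimate lay within 2 SE of 0.

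In chromosomal order, 10 measured members in a row, from ZNF701 to ZNF525, had a positive log2 fold change in HC/KA-SETDB1 OE. ZNF83, ZNF320, ZNF816 and ZNF415 lie within that row. The row was noticed after the values were seen and has no test, and only ZNF83 and ZNF415 in it were called. Of 65 other genes annotated within the cluster's span, 10 had a probe and 3 were measured. PPP2R1A, a scaffold subunit of the phosphatase PP2A, had a log2 fold change of 0.42, and VN1R2 and TPM3P9 had 0.13 and 0.1, each with an unadjusted p above 0.05.

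The lean toward positive values was shared with other zinc finger genes. Of the 27 members, 20 (74.1%) had a positive log2 fold change in HC/KA-SETDB1 OE against the empty vector, where 51.8% of all genes tested did. The same held for 74.7% of 146 ZNF genes elsewhere on chromosome 19 and 59.7% of 201 ZNF genes on other chromosomes. The median log2 fold change was 0.08 for the members (quartiles -0.01 and 0.36), 0.13 for the other chromosome 19 ZNF genes, 0.07 for ZNF genes on other chromosomes and 0.01 for all genes tested. In the neighbouring cluster at 19q13.43, 24 of 32 measured genes (75%) were positive, with a median of 0.1. These genes are also counted among the other chromosome 19 ZNF genes, so the sets are not separate. In none of these 3 comparison sets was a gene called by limma, while at an unadjusted p under 0.05 the counts higher and lower were 21 and 1 for the other chromosome 19 ZNF genes, 16 and 4 for ZNF genes on other chromosomes, and 2 and 0 at 19q13.43. By array, the median difference of the members from the empty vector mean was 0.17, 0.15 and 0.16 in HC/KA-SETDB1 OE and 0.06, 0.06 and -0.08 in the empty vector. The members' median was 0.27 without empty vector replicate 2, which was the array with the widest background, and 0.16 without HC/KA-SETDB1 OE replicate 2. A median over members that passed the filter is a description. By these values the cluster was not set apart from the other ZNF genes of chromosome 19, while on other chromosomes the share of positive ZNF genes was lower.

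Members whose promoter windows hold CCCCGCCCAC can be set beside those whose windows lack it. Leaving out ZNF83 and ZNF415, from which the run was taken, 8 measured members with the run had a median log2 fold change of 0.36 in HC/KA-SETDB1 OE (range -0.4 to 0.9), and 7 of them were positive. The 13 measured members with a window that lacks it had a median of 0.05 (range -0.22 to 0.64), and 9 were positive. ZNF813, which holds both printed runs, was the member at -0.4 (SE 0.27, limma adjusted p = 0.604). In SETDB1 OE against the empty vector the medians were 0.11 with the run (7 of 8 positive) and 0 without it (6 of 13 positive), and in SETDB1 OE against HC/KA-SETDB1 OE they were -0.12 and -0.11. These comparisons share arrays, the ranges overlap, and the split was made with the values known, so it has no test.

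**Figure D3:**
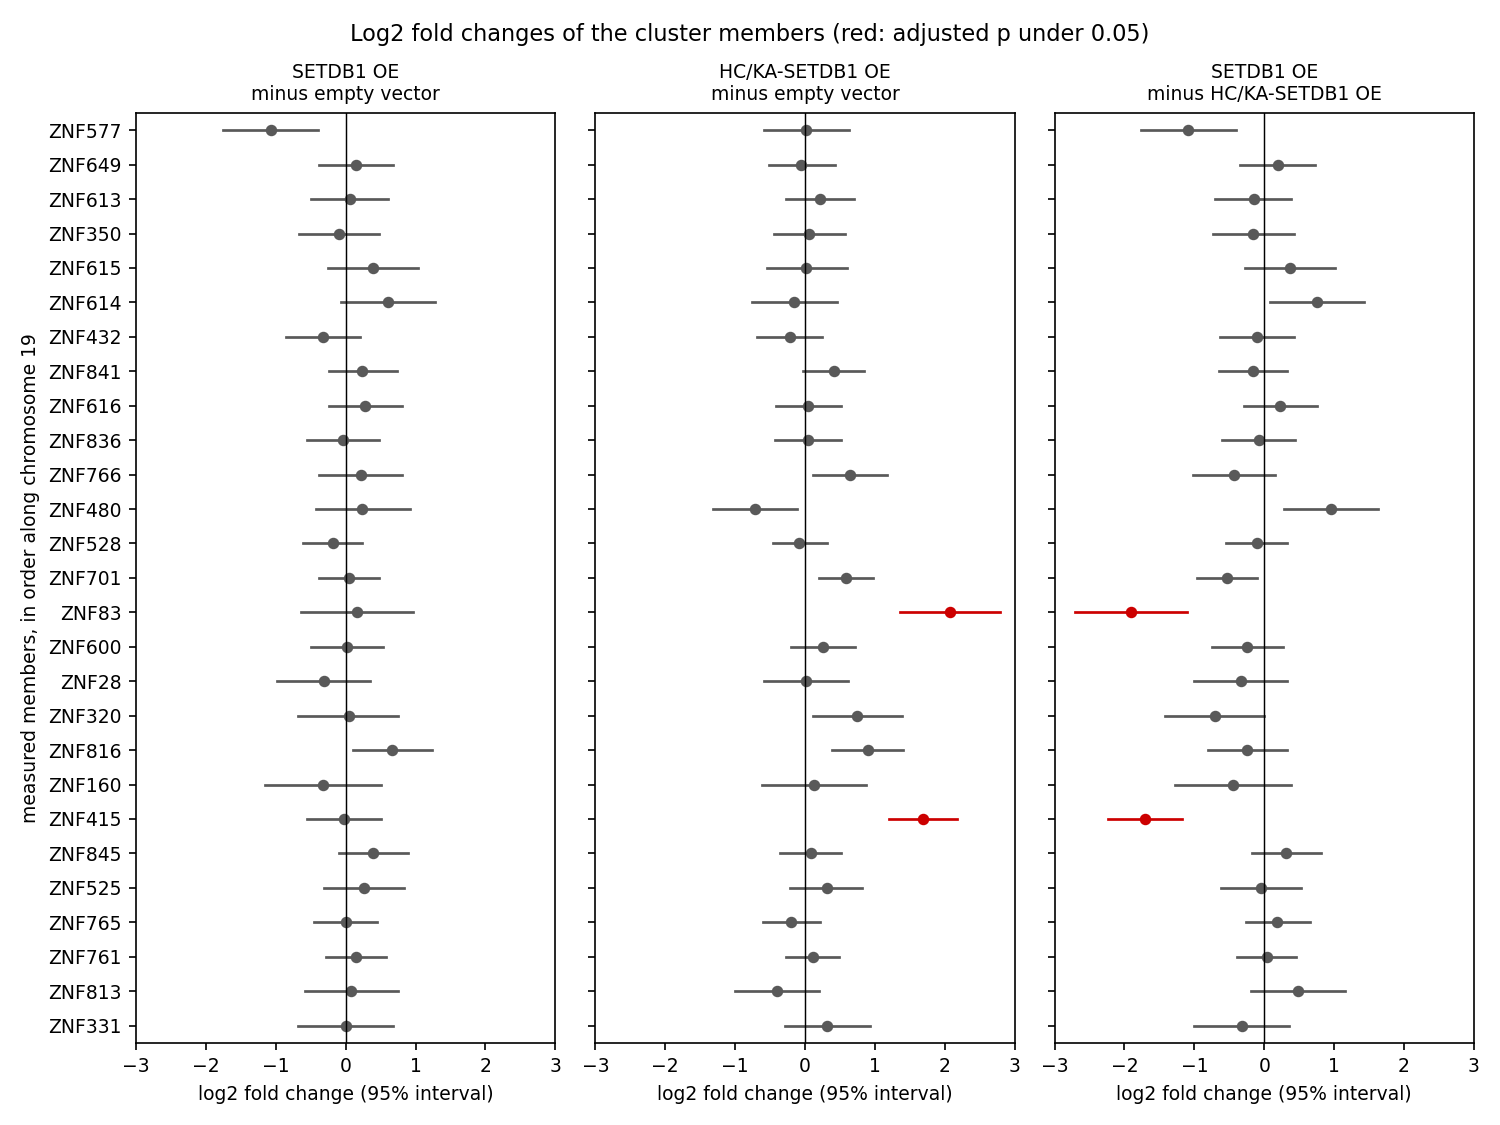
Log2 fold change of each measured member (points) with its 95% interval (lines), members in chromosomal order from top to bottom, for SETDB1 OE minus empty vector (left), HC/KA-SETDB1 OE minus empty vector (middle) and SETDB1 OE minus HC/KA-SETDB1 OE (right). Red marks an adjusted p under 0.05, reached by ZNF83 and ZNF415 in the middle and right panels and by 0 members in the left panel.

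The comparison of SETDB1 OE with the empty vector asks what the unmutated enzyme does to the members. None of the 27 members passed limma's test, where 0.265% of all genes tested did, in a comparison resting on the 2 arrays labelled SETDB1 OE, in which the SETDB1 probe itself read lowest. At an unadjusted p under 0.05, 1 member was higher, ZNF816, where 5.14% of all genes tested were, and 1 was lower, ZNF577, where 5.69% were. Log2 fold changes ran from -1.07 to 0.66 with a median of 0.06, against 0 for all genes tested, and the median was -0.02 without SETDB1 OE replicate 1. Of the members, 63% were positive, against 49.9% of all genes tested. The share was 46.6% for ZNF genes elsewhere on chromosome 19 and 49.3% for those on other chromosomes. ZNF577, a gene reported as hypermethylated in breast tumours, had 7.08 and 7.16 in SETDB1 OE, against 7.66, 8.49 and 8.44 in the empty vector. Both SETDB1 OE arrays were the lower ones, with a log2 fold change of -1.07 (SE 0.31, limma adjusted p = 0.216). A second ZNF577 probe, detected on 2 arrays, gave -0.27 (SE 0.27). ZNF816 had 6.53 and 6.64 in SETDB1 OE, above all empty vector arrays, with a log2 fold change of 0.66 (SE 0.26, limma adjusted p = 0.374). In all, 3 members were higher without overlap of the arrays, where 2191 of the 13974 genes tested were so placed. Another 2 members were lower without overlap, where 2287 genes were.

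Neither ZNF83 nor ZNF415 passed the test in SETDB1 OE against the empty vector. ZNF83 had 4.64 and 5.16 in SETDB1 OE, against 4.88, 4.99 and 4.36 in the empty vector, with a log2 fold change of 0.16 (95% interval -0.64 to 0.96, limma adjusted p = 0.927). ZNF415 had 4.45 and 4.44 in SETDB1 OE and was below background in both SETDB1 OE and the empty vector, so no fold is given. The interval for ZNF83 allows a rise of up to 0.96 on the log2 scale.

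For ZNF160, probes disagreed in this comparison. The probe used gave a log2 fold change of -0.32 (SE 0.37) and a second probe detected on all 8 arrays gave 0.35 (SE 0.23). Of the 27 measured members, 4 had more than 1 passing probe. Probe sequences were not used here, so how far a probe also binds RNA of a similar member was not checked.

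Setting the unmutated form directly against the mutant asks whether the constructs differ. It shares its arrays with both comparisons above. ZNF83 and ZNF415 fell in SETDB1 OE relative to HC/KA-SETDB1 OE, where 2.26% of all genes tested fell, and 0 members rose, where 2.08% did. Nothing is read from this count either. ZNF83 had 4.64 and 5.16 in SETDB1 OE, against 6.8, 6.15 and 7.48 in HC/KA-SETDB1 OE, a log2 fold change of -1.91 (SE 0.36, limma adjusted p = 0.0197). ZNF415 had 4.45 and 4.44 in SETDB1 OE, against 6.07, 5.79 and 6.59 in HC/KA-SETDB1 OE. This was a drop of about 3-fold, reckoned in the same way (log2 fold change -1.71, SE 0.24, limma adjusted p = 0.00705). Here too ZNF415 passed the detection filter solely through HC/KA-SETDB1 OE, so it had to differ. No array of SETDB1 OE reached the lowest of HC/KA-SETDB1 OE for either gene. Of the 25 other members, 0 were called in either direction. Leaving out either SETDB1 OE array leaves 1 in the group, so effect sizes alone are given for these fits. Without replicate 1 the log2 fold change was -1.64 for ZNF83 and -1.74 for ZNF415, and without replicate 2 it was -2.13 and -1.66. ZNF83 was not called without HC/KA-SETDB1 OE replicate 3 (limma adjusted p = 0.0543). That fit called 158 genes of the whole array, against 606 with all arrays.

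At an unadjusted p under 0.05, 4 members were lower in SETDB1 OE, where 11.7% of all genes tested were, and 2 were higher, where 10.4% were. Among the 25 members other than ZNF83 and ZNF415, 2 were lower and 2 higher. Beside ZNF83 and ZNF415 the lower ones were ZNF577 and ZNF701. ZNF577 had 7.08 and 7.16 in SETDB1 OE, against 7.76, 8.28 and 8.59 in HC/KA-SETDB1 OE, with a log2 fold change of -1.09 (SE 0.31, limma adjusted p = 0.0717). It passed the test without HC/KA-SETDB1 OE replicate 1, at -1.32, and with array weights on all 8 arrays, at -1.22, with an adjusted p of 0.0284 in each. ZNF701 had 4.92 and 4.98 in SETDB1 OE, against 5.48, 5.49 and 5.48 in HC/KA-SETDB1 OE, with a log2 fold change of -0.53 (SE 0.19, limma adjusted p = 0.14). For both genes the groups did not overlap. In all, 6 of the 27 members, ZNF83 and ZNF415 among them, were lower without overlap, where 2669 of the 13974 genes tested were so placed. Another 3 members were higher without overlap, where 2493 genes were.

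The higher ones were ZNF480 and ZNF614. ZNF480 had 6.88 and 6.18 in SETDB1 OE, against 5, 5.91 and 5.83 in HC/KA-SETDB1 OE, with a log2 fold change of 0.95 (SE 0.3, limma adjusted p = 0.103). ZNF614 had 6.85 and 6.88 in SETDB1 OE, against 5.96, 6.04 and 6.32 in HC/KA-SETDB1 OE, with a log2 fold change of 0.76 (SE 0.31, limma adjusted p = 0.178). Its empty vector arrays, at 6.91, 5.75 and 6.11, spanned both groups. Over the members the median log2 fold change was -0.15, against -0.16 for ZNF genes elsewhere on chromosome 19, -0.05 for ZNF genes on other chromosomes and -0.01 for all genes tested.

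**Figure D4:**
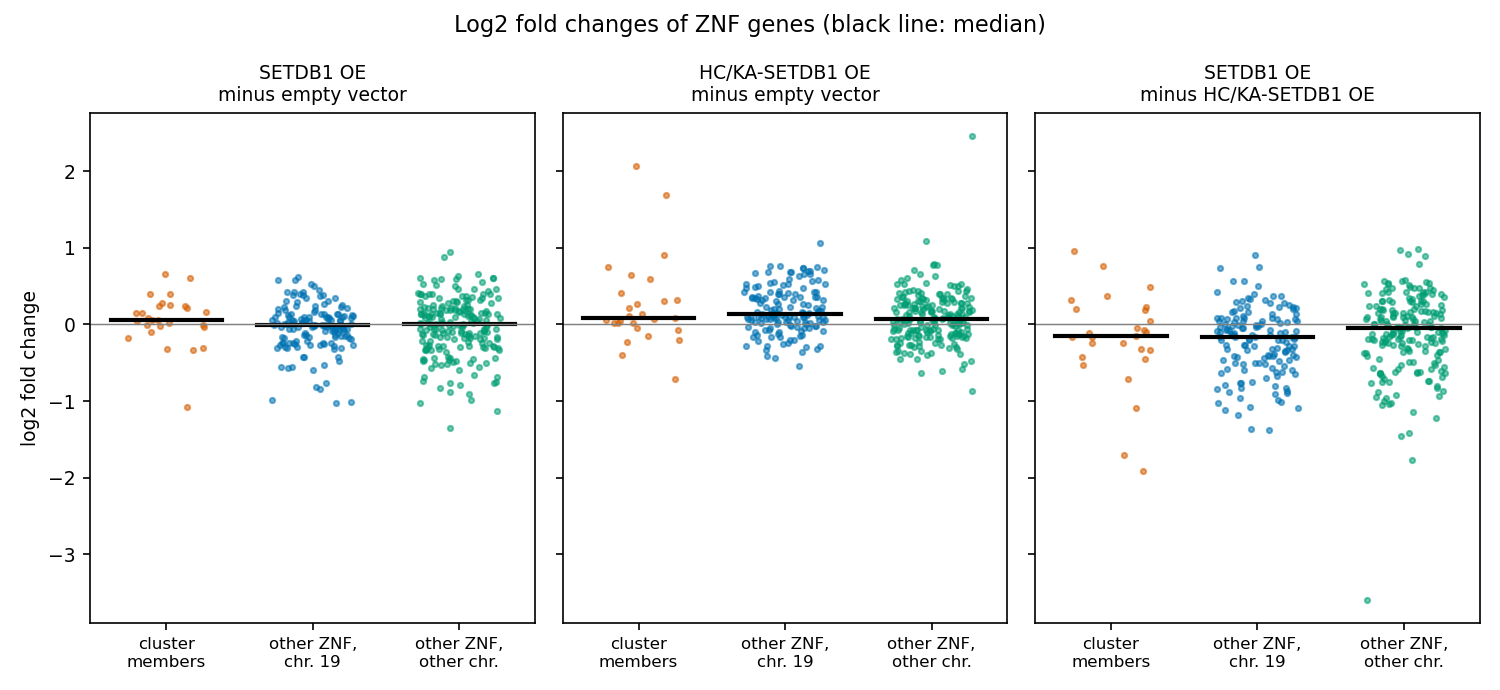
Log2 fold change (y axis) of single genes (points, spread sideways for view) in 3 sets (x axis: 27 cluster members, 146 other ZNF genes of chromosome 19, 201 ZNF genes of other chromosomes) for the 3 comparisons, with the median as a black line. The medians of the members and of the other chromosome 19 ZNF genes lie close together in each panel, and in the middle panel ZNF83 and ZNF415 are the members above 1.

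The machinery through which KRAB zinc finger proteins act was listed separately, and 35 of its 37 genes were measured. None passed limma's test in any comparison, where 0.265% of all genes tested did in SETDB1 OE against the empty vector, 0.0787% rose and 0.243% fell in HC/KA-SETDB1 OE against it, and 2.08% rose and 2.26% fell in SETDB1 OE against HC/KA-SETDB1 OE. At an unadjusted p under 0.05, 0 were higher and 1 lower in SETDB1 OE against the empty vector, 0 and 1 in HC/KA-SETDB1 OE against the empty vector, and 2 and 2 in SETDB1 OE against HC/KA-SETDB1 OE. Of all genes tested, 5.14% and 5.69%, 6.46% and 6.07%, and 10.4% and 11.7% were so placed in these comparisons. CHD3, a chromatin remodeller of the NuRD complex, was the lower one in SETDB1 OE, at a log2 fold change of -0.74 (SE 0.32, limma adjusted p = 0.436). SUMO2, a modifier needed for TRIM28 to recruit SETDB1, was the lower one in HC/KA-SETDB1 OE, at -0.71 (SE 0.26, limma adjusted p = 0.295). In SETDB1 OE against HC/KA-SETDB1 OE, SETDB1 had the smallest p of the list, at -0.75 (SE 0.24, limma adjusted p = 0.107). SUMO2 was higher there, at 0.86 (SE 0.29, limma adjusted p = 0.119). UHRF1, a reader of hemimethylated DNA, was also higher in SETDB1 OE than in HC/KA-SETDB1 OE, by 1.33 (SE 0.5, limma adjusted p = 0.148). Its HC/KA-SETDB1 OE arrays spread widely, at 7.85, 10.06 and 9.04, against 10.3 and 10.33 in SETDB1 OE. The medians over the list were 0.02, -0.1 and 0.04 in the same order of comparisons.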

How the data were processed

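Total RNA was extracted with Trizol, cleaned on columns with DNase and labelled as biotinylated cRNA, per the labels' protocols. The authors deposited a non-normalized bead intensity per probe and array, and beside it a detection p-value, per the file headers, with no account of its computation in the sources used here. A table of processed log2 values, also deposited by the authors, had columns that each showed a median of 6.53 and followed the array's own raw log2 intensity (lowest correlation 0.9996); it was used as an alternative. Of 48107 probes, 5 with a missing cell were left out. Symbols came from the platform annotation, updated by gene identifier with RefSeq (GRCh38.p14): 30110 probes had 1 symbol, 8 several and 17984 none.

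Intensities were background-corrected from the detection p-values, given an offset of 16 and quantile-normalized on the log2 scale with neqc (limma 3.58.1, R 4.3.3). The filter kept 26689 probes that were detected (p under 0.05) on 2 or more arrays, and the probe with the highest mean stood for its gene. Groups were compared with lmFit, contrasts.fit and eBayes on all 8 arrays, two-sided, with Benjamini-Hochberg adjustment over 13974 genes, and called at an adjusted p under 0.05. The number of arrays, 2 or 3 a group, limits the precision. The script was tested on simulated data. Plots were drawn with matplotlib 3.10.9, and promoter letters were searched with Biostrings 2.70.1.

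Deviations from the group means correlated at 0.46, 0.19 and 0.15 between same-numbered replicates of HC/KA-SETDB1 OE and the empty vector. Replicates with different numbers were not compared in this way, so no pairing is read from these values. A fit with the number as a block was run beside the main one. The 19 alternatives changed the background correction, normalization, offset, filter, probe choice, weights, samples or block. The members and lists were chosen with earlier results of these data known. Values by array were given for members called, or with an unadjusted p under 0.05, in any comparison, and for dim members near the detection limit. Levels of different probes were not ranked.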

Additional observations from a re-analysis of the deposited data

How the results depend on the processing

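None of the 19 alternatives turned the direction of ZNF83 or ZNF415. ZNF415 was detected in HC/KA-SETDB1 OE alone and passed the filter through it, so a kept call of ZNF415 is no added support. Against the empty vector, the HC/KA-SETDB1 OE call was lost in 10 of 19 for ZNF83 (log2 fold change 0.97 to 2.38, adjusted p 0.00725 to 0.131) and in 8 of 19 for ZNF415 (0.71 to 1.84, 0.00582 to 0.0921). In SETDB1 OE against HC/KA-SETDB1 OE it was lost in 8 of 19 for ZNF83 (adjusted p 0.00371 to 0.196) and in 2 of 19 for ZNF415 (0.00212 to 0.072). The number of members called in HC/KA-SETDB1 OE against the empty vector, 2, became 0 with the authors' deposited log2 values, with quantile normalization and no background correction, with an offset of 50 and without a filter, and 1 (ZNF415) when only the 2 groups were fitted. It ranged from 0 to 3 when single arrays were left out. In SETDB1 OE against HC/KA-SETDB1 OE it became 1 (ZNF415) under the same 5 alternatives, 3 with array weights (ZNF577 added) and 0 to 3 without single arrays. The cause of these changes in number was not tested. SETDB1 OE against the empty vector gave 0 members under every alternative run.

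The members' median log2 fold change in SETDB1 OE against HC/KA-SETDB1 OE was -0.07 with the authors' values, -0.08 without background correction and -0.07 with an offset of 50, and -0.17 to -0.09 without single arrays. Without single arrays it was -0.02 to 0.14 in SETDB1 OE against the empty vector and 0.08 to 0.27 in HC/KA-SETDB1 OE against the empty vector. With the replicate number as a block it was 0.13 in SETDB1 OE against the empty vector. Deviations of the SETDB1 OE arrays correlated with those of the same number at 0.15 and 0.12 in the empty vector. In HC/KA-SETDB1 OE these correlations were 0.12 and 0.03. In HC/KA-SETDB1 OE against the empty vector the replicate block kept ZNF83 (adjusted p 0.0244) and ZNF415 (0.00778) called, and called 127 genes in all, against 45 without it. The block changed no other call among the named members. Changes in members near the detection limit could not be resolved.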
